A study of Homo sapiens with 6 samples.

Results

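Kinesins are motor proteins that walk along microtubules, and tubulins are the subunits of which those tracks are built. The genes described here were chosen by name: every probe whose gene symbol, current or older, starts with KIF and a number, with KIFC, or with TUBA, TUBB, TUBG, TUBD or TUBE. The rule matched 106 probes of 74 genes among the 47323 probes listed, and 53 of those genes passed a filter on dim probes and were tested beside 11388 genes in all. Of the 53 genes, 38 were detected on all 6 arrays. RNA came from the human TT line, which was established from a medullary carcinoma of the thyroid and retains features of calcitonin-secreting C cells. Of the 6 arrays, 2 held untreated cells, 2 held cells exposed to 10 μM Y15 and 2 held cells exposed to 10 μM PF-04554878, and no other agent or allele is named in the labels. Y15 is a small molecule aimed at the autophosphorylation site of focal adhesion kinase (FAK), and PF-04554878, or defactinib, inhibits the kinase activity of FAK. All groups are 1 cell line, and per the methods the compounds were in different solvents while the labels call the controls untreated, so solvent and compound cannot be told apart. In separate assays the study reports that Y15 detached TT cells, and that cell death rose at a dose below the one used here. The part of detachment and death in the results below was not tested.

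Mitotic kinesins assemble the spindle, move chromosomes on it and build the midzone where a dividing cell splits, and their genes are mainly transcribed in proliferating cells late in the cell cycle. Transport kinesins carry vesicles, organelles and RNA along microtubules in cells that need not divide, and several are abundant in neurons and endocrine cells. Alpha and beta tubulin pair into the dimer that polymerizes, and gamma tubulin sits in a ring complex that starts new microtubules. In animal cells the level of free tubulin dimer also feeds back on tubulin messenger RNA, which is degraded during its translation when dimer is in excess. With a bulk RNA measurement, fewer cells of a kind and less RNA per cell cannot be told apart.

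The match gave 14 mitotic kinesins (13 tested), 15 transport kinesins (9 tested), 13 other kinesins (5 tested), 11 alpha tubulins (8 tested), 9 beta tubulins (8 tested), 4 gamma, delta and epsilon tubulins (4 tested) and 6 gamma-tubulin complex proteins (5 tested). The kinesin-binding protein gene KIFBP (tested) and DNMBP matched only by an older name and are neither motor nor tubulin, and CENPE and NEDD1 also matched by an older name. The 21 genes that were not tested were KIF1C, KIF2B, KIF3A, KIF5A, KIF6, KIF7, KIF9, KIF12, KIF13A, KIF17, KIF19, KIF25, KIF26A, KIF27, KIFC3, TUBA4B, TUBA8, TUBAL3, TUBB8, TUBGCP3 and DNMBP, whose probes were detected on fewer than 2 arrays. C cell markers fitted the label, with 10 of 11 detected, while 0 of 6 thyroid follicular markers were. Before normalization, the summed intensity of the C cell markers was 86694 to 93638 in untreated cells, 36583 to 38753 with Y15 and 75669 to 80717 with PF-04554878. The mean intensity of whole arrays, given below, differed between the groups as well. After quantile normalization the median log2 change of the detected C cell markers was -0.50 under Y15 and -0.02 under PF-04554878. Of the 10 detected, 6 passed lower under Y15, and 1 lower and 3 higher under PF-04554878. Of all genes tested, 21.5% passed lower under Y15, and 35.1% lower and 27.3% higher under PF-04554878. Of 5 fibroblast markers 1 was detected on 2 arrays or more, as was 1 of 7 immune and endothelial markers, CD68, which passed higher under both compounds (1.89 and 1.22), and the part of these shifts in the results below was not tested. Mean intensity was 539 and 468 on the untreated arrays, 263 and 273 with Y15 and 359 and 348 with PF-04554878, and between 53 and 68 of the matched probes were detected per array. Values below are log2 signals, quantile normalized so that all arrays share 1 distribution. A gene passed when its change in the limma fit had a Benjamini-Hochberg adjusted p below 0.05 over all genes tested and was at least 1.2-fold, with n = 2 arrays per group. When each array was instead scaled to its own median over all probes, the median change over all genes was -0.78 under Y15 and -0.59 under PF-04554878, against -0.05 and -0.07 with quantile normalization, and directions that turn under that choice are named where they occur.

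Promoter sequences were set beside the expression values, since most of the tested mitotic kinesins passed lower under each compound. Of the 74 genes, 64 matched a RefSeq promoter window (GRCh38.p14), which runs from 250 bases before the transcription start to 50 after it. Windows of the first start listed for each gene were searched on both strands for TTTGAA and TTTAAA, 2 spellings of the cell cycle homology element found at many mitotic genes, and for CCAAT. Either of the first 2 was present in 12 of 14 mitotic kinesin windows (85.7%), in 2 of 11 transport kinesin windows (18.2%), in 2 of 10 alpha tubulin windows and in 2 of 9 beta tubulin windows. It was present in 24.3% of the 27305 promoter windows of all genes. CCAAT was found in 10 of 14 mitotic kinesin windows (71.4%) and in 35.7% of all windows, and 9 of 14 mitotic kinesin windows held it together with TTTGAA or TTTAAA (64.3%, against 9.49% of all windows). KIF22 and KIF2B were the mitotic kinesins with neither TTTGAA nor TTTAAA. A match of letters is a description of the sequence, binding was not measured, and a link between the motifs and the changes was not tested.

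The 250 bases before the start of 5 members are shown, 5′ to 3′ on the strand of the gene, with the searched motifs on either strand in capitals. KIF20A (chr5:138178862-138179111, + strand) and CENPE (chr4:103198344-103198593, - strand) fell under both compounds, and KIF23 (chr15:69414099-69414348, + strand) fell under Y15 alone. TUBB4B (chr9:137241037-137241286, + strand) and TUBA4A (chr2:219253919-219254168, - strand) were the beta and the alpha tubulin with the largest falls under PF-04554878 by the brightest probe of each gene.
KIF20A: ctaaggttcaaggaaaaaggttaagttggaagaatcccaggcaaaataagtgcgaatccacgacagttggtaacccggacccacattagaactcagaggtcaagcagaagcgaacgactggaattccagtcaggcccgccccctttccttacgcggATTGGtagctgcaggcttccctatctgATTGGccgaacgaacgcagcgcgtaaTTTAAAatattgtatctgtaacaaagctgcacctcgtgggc
CENPE: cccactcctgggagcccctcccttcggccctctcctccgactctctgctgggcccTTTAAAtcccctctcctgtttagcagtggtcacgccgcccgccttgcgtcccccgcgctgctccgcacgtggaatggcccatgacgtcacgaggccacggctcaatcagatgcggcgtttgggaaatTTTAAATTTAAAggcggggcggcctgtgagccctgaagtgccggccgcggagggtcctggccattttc
KIF23: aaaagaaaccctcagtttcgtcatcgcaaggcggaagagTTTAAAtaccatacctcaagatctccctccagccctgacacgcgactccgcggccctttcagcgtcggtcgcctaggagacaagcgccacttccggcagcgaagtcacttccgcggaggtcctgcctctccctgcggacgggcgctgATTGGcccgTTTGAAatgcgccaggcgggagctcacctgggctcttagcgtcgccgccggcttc
TUBB4B: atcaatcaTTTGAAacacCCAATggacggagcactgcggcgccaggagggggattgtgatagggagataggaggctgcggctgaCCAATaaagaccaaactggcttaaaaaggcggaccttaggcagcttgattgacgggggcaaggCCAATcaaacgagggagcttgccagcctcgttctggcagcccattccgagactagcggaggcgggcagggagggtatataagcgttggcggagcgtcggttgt
TUBA4A: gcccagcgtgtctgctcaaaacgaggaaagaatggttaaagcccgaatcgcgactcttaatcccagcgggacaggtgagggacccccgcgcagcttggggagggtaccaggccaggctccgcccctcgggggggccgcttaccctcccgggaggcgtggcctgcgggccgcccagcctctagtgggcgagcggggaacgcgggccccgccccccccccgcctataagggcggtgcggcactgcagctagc
In KIF20A a TTTAAA began 41 bases before the start, behind CCAAT boxes on the opposite strand at 67 and 94 bases. In KIF23 a TTTGAA began at 55 bases and an opposite-strand CCAAT at 64, and in CENPE a pair of abutting TTTAAA began at 62 and 68 bases. TUBB4B held 3 CCAAT in the window and a TTTGAA far upstream at 242 bases, and the window of TUBA4A held none of the motifs.

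Under Y15 the mitotic kinesins fell almost as a class. Of the 13 tested, 12 passed lower and 0 higher in limma (0 also at an unadjusted p below 0.05), with a median log2 change of -1.11, and 7 of them fell at least 2-fold. Among all 11388 genes 21.5% passed lower and 16.7% higher, 1.38% were lower by 2-fold or more, and the median was -0.05. Restricted to the 10 mitotic kinesins detected on all arrays, 10 passed lower (22.9% of all such genes) and the median was -1.42. The count was 11 without the first Y15 array and 11 without the second.

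KIF4A, a chromokinesin that also sets the length of the midzone, had the largest fall under Y15. Its signal was 9.21 and 9.20 on the untreated arrays, 7.56 and 7.47 with Y15 and 8.07 and 7.79 with PF-04554878. All 4 treated arrays lay below both untreated arrays. The change was -1.69 under Y15 (SE 0.11, 3.24-fold lower, adjusted p = 2.44e-05) and -1.27 under PF-04554878 (2.42-fold lower, adjusted p = 1.66e-05), and the direct difference between the compounds was -0.42 (95% interval -0.67 to -0.17, adjusted p = 0.00931), a call lost without the second Y15 or the first PF-04554878 array. KIF4B, an intronless near copy of KIF4A whose signal may mix with it, was not detected on the untreated and Y15 arrays and passed higher under PF-04554878 at a level close to background (at least 1.18-fold, adjusted p = 0.00618).

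CENPE, the kinetochore motor that brings chromosomes to the spindle equator, read 9.27 and 9.38 in untreated cells, 7.71 and 7.60 with Y15 and 7.48 and 7.52 with PF-04554878. The treated groups were both clear of the untreated one. It fell 3.19-fold under Y15 (adjusted p = 9.63e-06) and 3.54-fold under PF-04554878 (adjusted p = 1.39e-06), and its second probe fell as well, by 1.13 and 1.46 on the log2 scale. That probe was detected on 4 arrays and was near background with PF-04554878, so its fall there is not exact. KIF11, the motor that pushes the spindle poles apart and a drug target of its own, gave signals of 9.34 and 9.51 untreated, 8.03 and 7.93 with Y15 and 7.84 and 7.80 with PF-04554878. The 3 groups did not overlap, the treated arrays being lowest. Its falls were 2.73-fold and 3.04-fold (adjusted p = 2.86e-05 and 2.71e-06), and both of its probes passed lower under each compound. KIF20A, which carries the chromosomal passenger complex to the midzone, read 9.99 and 9.92, then 8.49 and 8.31 with Y15 and 8.21 and 8.16 with PF-04554878. Again no treated array reached an untreated one, and the falls were 2.94-fold and 3.41-fold (adjusted p = 2.04e-05 and 1.89e-06). The study names KIF4A, KIF11 and KIF20A from these same arrays, and lists KIF14, KIF20B and KIF23 as lower with Y15. The falls of these genes are therefore not independent evidence for a fall of the class. Between the compounds the differences were 0.15 for CENPE (95% interval -0.06 to 0.36), 0.16 for KIF11 (-0.06 to 0.38) and 0.21 for KIF20A (-0.01 to 0.44), and none of the 3 passed by the brightest probe. The second probe of CENPE passed higher with Y15 (0.34, limma adjusted p = 0.0153), but its PF-04554878 signals were near background. The second probe of KIF11 differed by 0.26 and did not pass.

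**Figure D1:**
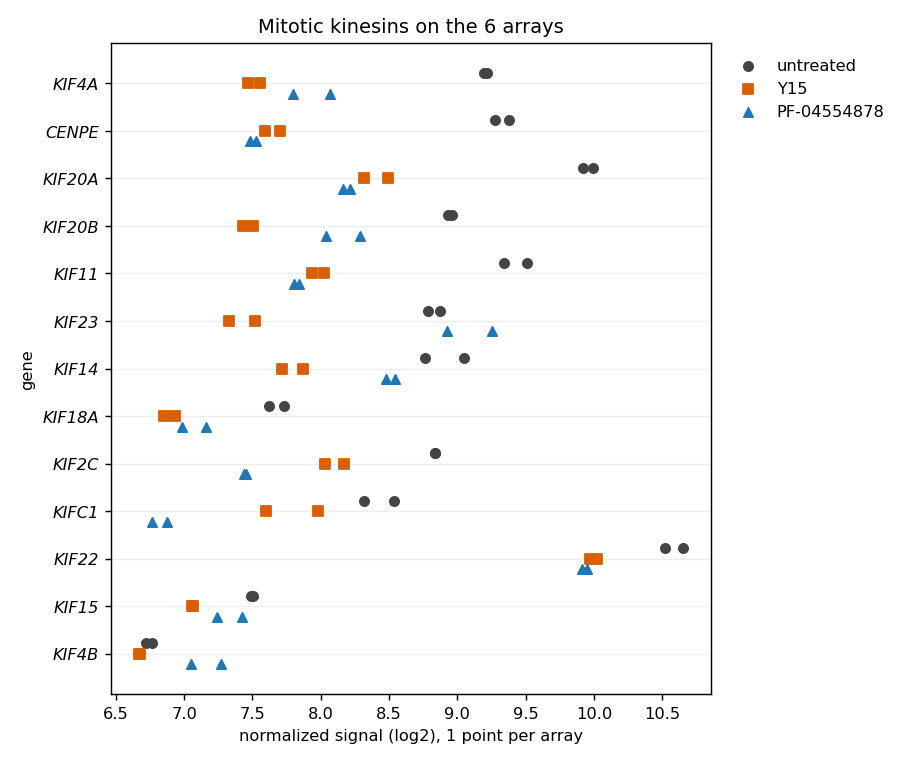
Normalized log2 signal (x axis) of each tested mitotic kinesin (y axis) on every array, 1 point per array, with untreated cells as circles, Y15 as squares and PF-04554878 as triangles. For CENPE, KIF11 and KIF20A both treated groups sit to the left of the untreated arrays, and for KIF23 only the Y15 arrays do.

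KIF23, KIF20B, KIF14 and KIF15 were lower with Y15 than with PF-04554878 in the direct test, as were KIF4A and the dim KIF4B. KIF23, a subunit of the centralspindlin complex that bundles midzone microtubules, stood out. Its signal was 8.78 and 8.87 untreated, 7.52 and 7.33 with Y15 and 9.25 and 8.92 with PF-04554878. The Y15 arrays were the lowest and the PF-04554878 arrays the highest, with no overlap. It fell 2.64-fold under Y15 (adjusted p = 0.000113) and changed by 0.26 under PF-04554878 without passing (95% interval -0.03 to 0.55, adjusted p = 0.098), a value that turned to -0.65 with median scaling. The direct difference was -1.67 (3.17-fold lower with Y15, adjusted p = 9.89e-06) and passed under every alternative tried.

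KIF20B, a cytokinesis motor, read 8.96 and 8.93 untreated, 7.50 and 7.43 with Y15 and 8.29 and 8.04 with PF-04554878. Its order was the same on all arrays, untreated highest and Y15 lowest. It fell 2.79-fold under Y15 and 1.73-fold under PF-04554878, and the difference of -0.69 between them passed (adjusted p = 0.000483). KIF14, which binds the midzone bundler PRC1 and citron kinase, read 8.76 and 9.05, then 7.71 and 7.87 with Y15 and 8.48 and 8.54 with PF-04554878. The same order held, although the call under PF-04554878 was lost without the second untreated or the first PF-04554878 array. Its falls were 2.16-fold and 1.32-fold, and the difference of -0.72 passed (adjusted p = 0.000702). KIF15, a motor that can back up KIF11, changed by -0.43 under Y15 and passed, and by -0.17 under PF-04554878 without passing. Its difference of -0.27 passed by a small margin (adjusted p = 0.0351) and was lost under 7 alternatives.

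KIF2C and KIFC1 ran the other way and fell more under PF-04554878. KIF2C, a microtubule depolymerase that corrects faulty attachments at kinetochores, read 8.84 and 8.84 untreated, 8.03 and 8.17 with Y15 and 7.44 and 7.45 with PF-04554878. All 3 groups were separate. Its falls were 1.67-fold and 2.62-fold, and the difference of 0.65 passed (adjusted p = 0.000283). KIFC1, a minus-end motor that gathers spindle poles, read 8.32 and 8.53, then 7.60 and 7.98 with Y15 and 6.88 and 6.77 with PF-04554878. It was not well above background on the PF-04554878 arrays, so its fall there was at least 2.63-fold, taken from the lowest signal of any probe detected on each array (adjusted p = 1.65e-05). With Y15 it fell 1.56-fold (adjusted p = 0.00729), a call lost without the first Y15 array, and the direct difference was at least 1.69-fold. KIF18A, which damps chromosome movement at the spindle equator, was undetected with Y15 and fell at least 1.59-fold there. With PF-04554878, where 1 of 2 arrays detected it, its change was -0.60 and passed. KIF22, a chromosome-arm motor, changed by -0.59 and -0.65 and passed in both comparisons.

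Of the 13 tested mitotic kinesins, 10 passed lower under PF-04554878 and 1, the dim KIF4B, passed higher, with a median of -0.79 and 6 at 2-fold or more. Across all genes 35.1% passed lower in that comparison, 9.58% at 2-fold or more, 27.3% passed higher, and the median was -0.07. Among those detected on all arrays, 8 of 10 passed lower (34.9% of all such genes) with a median of -1.03. The same 10 genes passed lower in both comparisons, which share the untreated arrays. The share of all genes lower in both was not counted. Between the compounds 6 mitotic kinesins were lower with Y15 and 2 higher, where 27.7% and 33.0% of all genes passed in those directions. Averaged over the 13 genes, the log2 signal was 8.77 and 8.83 on the untreated arrays, 7.75 and 7.75 with Y15 and 7.98 and 7.86 with PF-04554878.

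Transport kinesins changed less and in both directions. Under Y15 5 of 9 passed lower and 1 higher with a median of -0.34, where 21.5% and 16.7% of all genes passed. Under PF-04554878 4 passed lower and 2 higher with a median of -0.23, where 35.1% and 27.3% of all genes passed. Only 1 of them, KIF1B under PF-04554878, passed at 2-fold, and its probes disagreed. The median of the mitotic kinesins thus lay below that of the transport kinesins by a gap of -0.77 under Y15 and -0.56 under PF-04554878, given as a description without a test. The gap was -1.07 and -1.16 when only genes detected on all arrays were used. Of the 5 genes lower under Y15, KIF1B and KIF3B were detected on all arrays, while KIF3C, KIF13B and KIF16B were undetected in 1 treated group or more. The Y15 count was 1 without the first Y15 array, 2 without the second and 2 without the second untreated array, and 9 with median scaling.

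KIF1A, the motor of dense-core and synaptic vesicle precursors, had the largest mean signal of the transport kinesins. It read 11.63 and 12.57 untreated, 11.68 and 11.74 with Y15 and 12.30 and 12.36 with PF-04554878. The untreated arrays were 0.95 apart, the widest spread between duplicates of any tested member, and both treated groups fell inside it. Its changes of -0.39 (95% interval -0.95 to 0.17) and 0.23 (-0.33 to 0.79) did not pass, but the first became -0.90 and passed without the first untreated array, and the second 0.72 and passed without the second. The direct difference of -0.62 did not pass either (adjusted p = 0.054) and passed in 9 alternatives, leaving out either untreated array and both replicate blocks among them. KIFC2, a minus-end motor studied in mouse neurons, read 9.46 and 9.86 untreated, 9.68 and 9.78 with Y15 and 10.51 and 10.74 with PF-04554878. Only the PF-04554878 arrays lay outside the untreated range. Its rise there was 1.95-fold (adjusted p = 0.000402, lost with median scaling). It was 1.86-fold lower with Y15 than with PF-04554878 (adjusted p = 0.00066). Its change of 0.07 under Y15 did not pass and turned to -1.06 with median scaling.

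KIF1B encodes isoforms that carry mitochondria or synaptic vesicle precursors. Its brightest probe read 9.83 and 10.25 untreated, 9.11 and 9.13 with Y15 and 8.44 and 8.50 with PF-04554878. Another of its probes, also detected on all arrays, went the opposite way, with 7.26 and 7.31 untreated, 7.90 and 7.70 with Y15 and 8.55 and 8.23 with PF-04554878. The first probe fell by 0.92 and 1.57 on the log2 scale and the second rose by 0.52 and 1.10, and all 4 changes passed. Its remaining, dimmer probe, detected on 3 arrays only, changed by 0.16 and 0.42. No single direction can therefore be given for the gene, and which transcripts each probe reads was not tested.

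KIF5B and KIF3B carried opposite calls under the compounds. KIF5B, the widely expressed conventional kinesin heavy chain, read 8.36 and 8.32 untreated, 8.85 and 8.64 with Y15 and 7.94 and 7.91 with PF-04554878. The Y15 arrays were highest and the PF-04554878 arrays lowest. It passed higher under Y15 (0.40, adjusted p = 0.0123, -0.69 with median scaling and lost without the first Y15 array) and lower under PF-04554878 (-0.41, adjusted p = 0.00569). KIF3B, a motor subunit of heterotrimeric kinesin-2, read 8.67 and 8.67, then 8.30 and 8.31 with Y15 and 9.06 and 9.19 with PF-04554878. Here the order was reversed. It passed lower under Y15 (-0.37, adjusted p = 0.0125, lost without either Y15 array) and higher under PF-04554878 (0.45, adjusted p = 0.00215, -0.47 with median scaling). The direct differences were 0.82 for KIF5B (adjusted p = 0.000125) and -0.82 for KIF3B (adjusted p = 7.19e-05), and both passed under every alternative tried. The second probe of KIF3B moved the same way, with changes of -0.35 and 0.41.

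KIF5C, a neuronal conventional kinesin, read 8.62 and 9.01 untreated, 8.38 and 8.56 with Y15 and 8.98 and 8.72 with PF-04554878. Its Y15 arrays were lowest, but its changes of -0.34 (95% interval -0.68 to -0.01) and 0.03 (-0.30 to 0.37) passed in neither comparison. The change under PF-04554878 turned to -0.91 with median scaling. KIF3C, a partner of KIF3B, passed lower in both (-0.29 under Y15 and at least 1.41-fold lower under PF-04554878, where it was undetected). Its Y15 call was lost in 5 alternatives, among them the median of the tested probes, with a change of -0.08. KIF13B, a kinesin-3 motor, was detected on 1 Y15 array and changed by -0.37 there, a call lost without the second untreated or the first Y15 array and turned to 0.00183 when arrays were scaled to the median of the tested probes. On the PF-04554878 arrays it was undetected and at least 1.27-fold lower (adjusted p = 0.00532). KIF16B, an early endosome motor, was detected in untreated cells only, at a level so close to background that no fold can be given. It passed under Y15 (adjusted p = 0.036), but the call was lost without any one of the untreated or Y15 arrays and with the replicate block, and it turned to 0.43 with the median of the tested probes, as did its value under PF-04554878 (0.41), where it had not passed. Between the compounds 3 transport kinesins were higher with Y15 (KIF5B, KIF1B, KIF3C) and 2 lower (KIF3B, KIFC2).

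**Figure D2:**
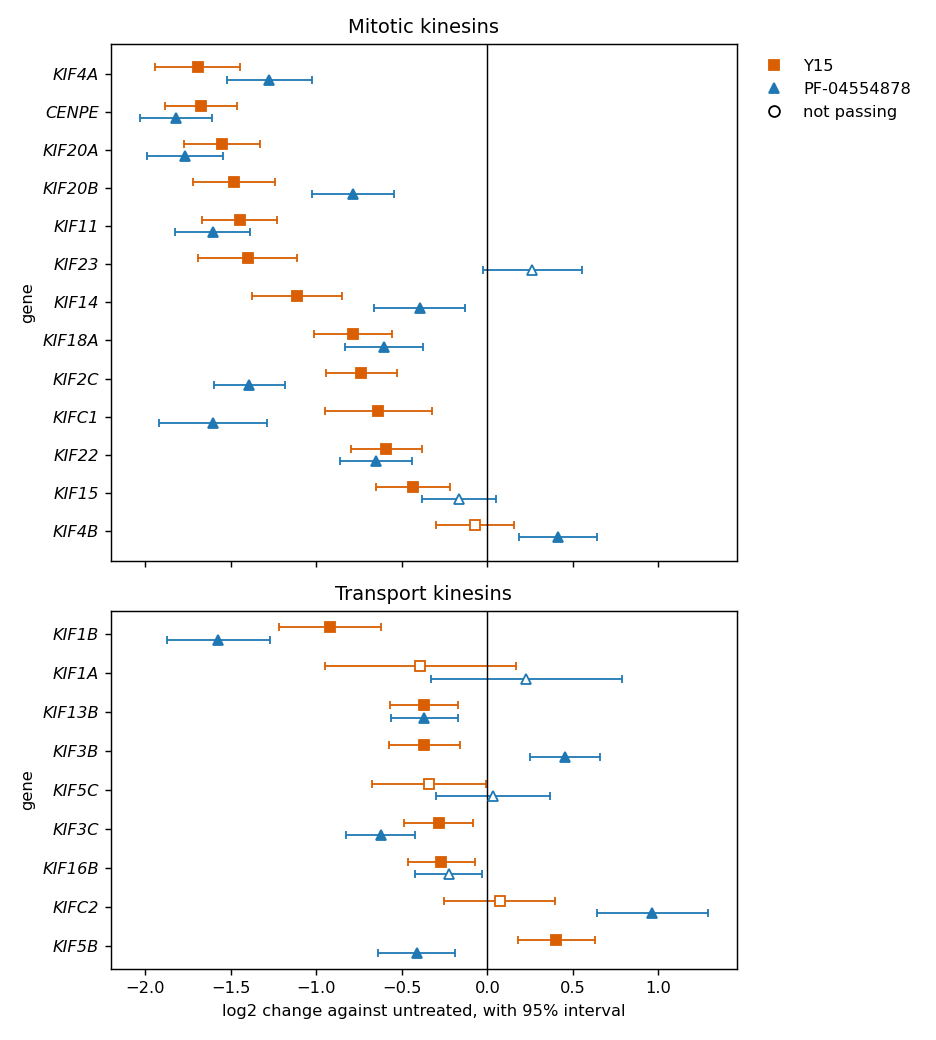
Log2 change against untreated cells (x axis) of each tested mitotic kinesin (upper panel) and transport kinesin (lower panel), with Y15 as squares and PF-04554878 as triangles, bars for the 95% interval of the limma fit and open symbols for changes that did not pass. Most mitotic kinesins lie left of 0 under both compounds (medians -1.11 and -0.79), while transport kinesins lie on both sides (medians -0.34 and -0.23), and with median scaling KIF23, KIF3B and KIF5C under PF-04554878, and KIF5B and KIFC2 under Y15, turn below 0, while with the median of the tested probes KIF13B, KIF16B and KIF4B under Y15 and KIF16B under PF-04554878 turn above 0. Genes not well above background in a treated group (KIF18A and KIF16B with Y15, KIFC1, KIF3C, KIF13B and KIF16B with PF-04554878, KIF4B untreated and with Y15) are drawn at their measured values, whose changes are not exact.

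Of the 5 other kinesins tested, 3 passed lower under each compound at levels near background: KIF21B, KIF24 and KIF26B. Of all genes, 21.5% passed lower under Y15 and 35.1% under PF-04554878. KIF21B changed by -0.38 and -0.42, calls lost in 4 and 3 alternatives. KIF24, a centriolar kinesin, and KIF26B, a kinesin without known motor activity, were detected in untreated cells alone. KIF24 was at least 1.11-fold and 1.10-fold lower and KIF26B at least 1.21-fold and 1.19-fold lower, the Y15 call of KIF26B being lost without the second untreated or the first Y15 array. Scaling to the median of the tested probes turned them to 0.12 and 0.066 under Y15 and KIF24 to 0.10 under PF-04554878. KIF2A, a depolymerase related to KIF2C that acts at spindle poles and in neurons, read 8.63 and 8.58 untreated, 8.72 and 8.69 with Y15 and 9.03 and 9.03 with PF-04554878. It rose 1.34-fold under PF-04554878 (adjusted p = 0.00228, -0.51 with median scaling). Its change of 0.10 under Y15 did not pass and turned to -1.03 with median scaling. KIF2A was not classed as mitotic, so the counts of that class and its gap to the transport kinesins leave it out. KIF21A changed by -0.06 and -0.26 and did not pass. KIFBP, which binds kinesin motor domains and blocks them from microtubules, changed by -0.48 and -0.43 and passed in both, calls lost in 3 and 2 of the fits that left out 1 array.

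Alpha and beta tubulins fell widely under PF-04554878 and much less under Y15. With PF-04554878, 13 of the 16 tested passed lower and 1 higher, the median was -0.93 and 7 fell at least 2-fold (35.1% of all genes passed lower, 9.58% at 2-fold), although TUBA1A, TUBA1B and TUBA3C turned above 0 when arrays were scaled to the median of the tested probes. With Y15, 7 passed lower and 3 higher (21.5% and 16.7% of all genes), the median was -0.22 and 1 fell at least 2-fold, each gene being counted by its brightest probe. The Y15 count was 3 and 4 without the first and the second Y15 array, 4 without the second untreated array and 12 with median scaling. Tested directly, 12 of the 16 were higher with Y15 than with PF-04554878 and 0 lower (33.0% and 27.7% of all genes), with a median difference of 0.48 (0.05 over all genes), the count of 0 holding also at an unadjusted p below 0.05. With median scaling the counts were 6 and 1, and with either scaling 2 of 16 lay below the median gene. Restricted to genes detected on all arrays, 10 of 12 were higher with Y15 (34.3% of all such genes). These direct counts also rest on the brightest probe of each gene. Where a gene had a second tested probe, that probe passed higher for TUBA1C (2.71) and did not pass for TUBA1A, TUBA3FP, TUBB and TUBB6.

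TUBA4A, an alpha tubulin made without the C-terminal tyrosine of the other forms, showed the largest difference between the compounds among the members as counted by their brightest probe. It read 9.82 and 9.92 untreated, 10.18 and 10.28 with Y15 and 7.54 and 7.71 with PF-04554878. The PF-04554878 arrays lay far below all others. It fell 4.74-fold under PF-04554878 (adjusted p = 8.04e-07) and passed higher under Y15 by 1.29-fold (adjusted p = 0.0203), a rise that became -0.76 with median scaling and was lost in 5 other alternatives, leaving out either Y15 array among them. The direct difference was 2.61 (95% interval 2.38 to 2.84, 6.10-fold, adjusted p = 5.92e-07).

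TUBA1A, TUBA1B and TUBA1C encode the nearly identical main alpha tubulins, so signals can be shared between their probes. TUBA1A read 13.59 and 13.63 untreated, 13.60 and 13.67 with Y15 and 13.29 and 13.28 with PF-04554878, so that only PF-04554878 was lower. Its other probe fell from 13.27 and 12.69 to 11.13 and 11.17 with Y15 and to 11.05 and 10.91 with PF-04554878, changes of -1.83 and -2.00 against 0.03 and -0.32 for the brighter probe. TUBA1C read 13.96 and 13.96 untreated, 12.77 and 12.73 with Y15 and 12.82 and 12.83 with PF-04554878. By this brightest probe it fell 2.31-fold under Y15 and 2.20-fold under PF-04554878. Its other probe had a larger fall under PF-04554878 than any tubulin's brightest probe (-2.79) and changed by -0.08 under Y15 without passing, with 12.33 and 12.42 untreated, 12.29 and 12.31 with Y15 and 9.57 and 9.60 with PF-04554878. For both genes the probes thus disagreed by more than 1 log2 unit in at least 1 comparison. TUBA1B read 13.39 and 13.52, then 13.25 and 13.44 with Y15 and 13.03 and 13.05 with PF-04554878. Its fall of 0.42 on the log2 scale under PF-04554878 passed (adjusted p = 0.00624), the Y15 arrays overlapped the untreated ones, and the direct difference of 0.31 turned to -0.05 with median scaling.

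TUBA3C, TUBA3D and TUBA3E are close copies expressed mainly in testis, and TUBA3FP is a pseudogene of the group. TUBA3D read 8.96 and 8.92 untreated, 8.20 and 8.46 with Y15 and 7.93 and 7.80 with PF-04554878. The 3 groups were separate, with falls of 1.53-fold and 2.11-fold. TUBA3E passed lower as well, by 1.37-fold with Y15 and by at least 1.51-fold with PF-04554878, where it was undetected, and TUBA3C was detected in untreated cells only and was at least 1.07-fold and 1.06-fold lower (turned to 0.29 and 0.24 with the median of the tested probes). The Y15 call of TUBA3C was lost without any one of the untreated or Y15 arrays, and the PF-04554878 call without the first untreated or the second PF-04554878 array. The brightest probe annotated to TUBA3FP read 12.54 and 13.32 untreated, 13.83 and 13.62 with Y15 and 13.54 and 13.48 with PF-04554878. Its untreated arrays were far apart, and it was the only alpha or beta tubulin entry higher under both compounds (0.80 and 0.58, adjusted p = 0.0181 and 0.0398). The call under PF-04554878 was lost in 9 alternatives and the call under Y15 in 3, among them the mean of its probes (0.27). Its second probe, detected on 2 arrays only, changed by -0.26 and -0.41.

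By the brightest probe of each gene, beta tubulins carried the clearest contrast between the compounds. TUBB4B, a broadly expressed form, read 10.88 and 11.03 untreated, 10.66 and 10.62 with Y15 and 8.94 and 9.19 with PF-04554878. The PF-04554878 arrays stood well below the others. It fell 3.71-fold under PF-04554878 (adjusted p = 2.41e-06) and 1.25-fold under Y15 (adjusted p = 0.0455, lost in 8 alternatives), and the direct difference of 1.57 was 2.97-fold (adjusted p = 6.41e-06). TUBB, the main beta tubulin of dividing cells, read 11.93 and 12.12, then 11.42 and 11.53 with Y15 and 10.43 and 10.55 with PF-04554878. Each group was separate, the falls were 1.47-fold (lost without the first Y15 array) and 2.89-fold, and its second probe changed by -0.37 and -0.67. Between the compounds the second probe of TUBB differed by 0.31 and did not pass (limma adjusted p = 0.065). TUBB2B read 13.58 and 13.55 untreated, 13.27 and 13.32 with Y15 and 12.17 and 12.18 with PF-04554878. Its changes were -0.27 and -1.39 and the direct difference was 2.17-fold (adjusted p = 1.01e-05), but the change under Y15 was lost in 7 alternatives and turned to 0.41 when arrays were scaled to the median of the tested probes.

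TUBB6 read 8.90 and 8.84 untreated, 8.56 and 8.66 with Y15 and 7.11 and 7.35 with PF-04554878. It fell 3.11-fold under PF-04554878 (adjusted p = 4.01e-06), while its dimmer probe changed by -0.22 and did not pass. Between the compounds the dimmer probe differed by 0.22 and did not pass either (limma adjusted p = 0.081). TUBB3, the beta tubulin typical of neurons, read 11.21 and 11.38, then 11.20 and 11.01 with Y15 and 10.14 and 10.45 with PF-04554878. The PF-04554878 arrays stood far below the others, with a 95% interval of the change from -1.29 to -0.71 (adjusted p = 0.000176), and a change of -0.19 under Y15 that did not pass. TUBB2A, a near copy of TUBB2B, differed from the rest: it read 9.81 and 9.75 untreated, 10.32 and 10.27 with Y15 and 9.53 and 9.81 with PF-04554878. It passed higher under Y15 (0.51, -0.62 with median scaling, lost without the first Y15 array) and changed by -0.11 under PF-04554878 without passing. TUBB1, the platelet form, passed lower under PF-04554878 (-0.60), and TUBB4A was near background and passed in neither comparison.

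**Figure D3:**
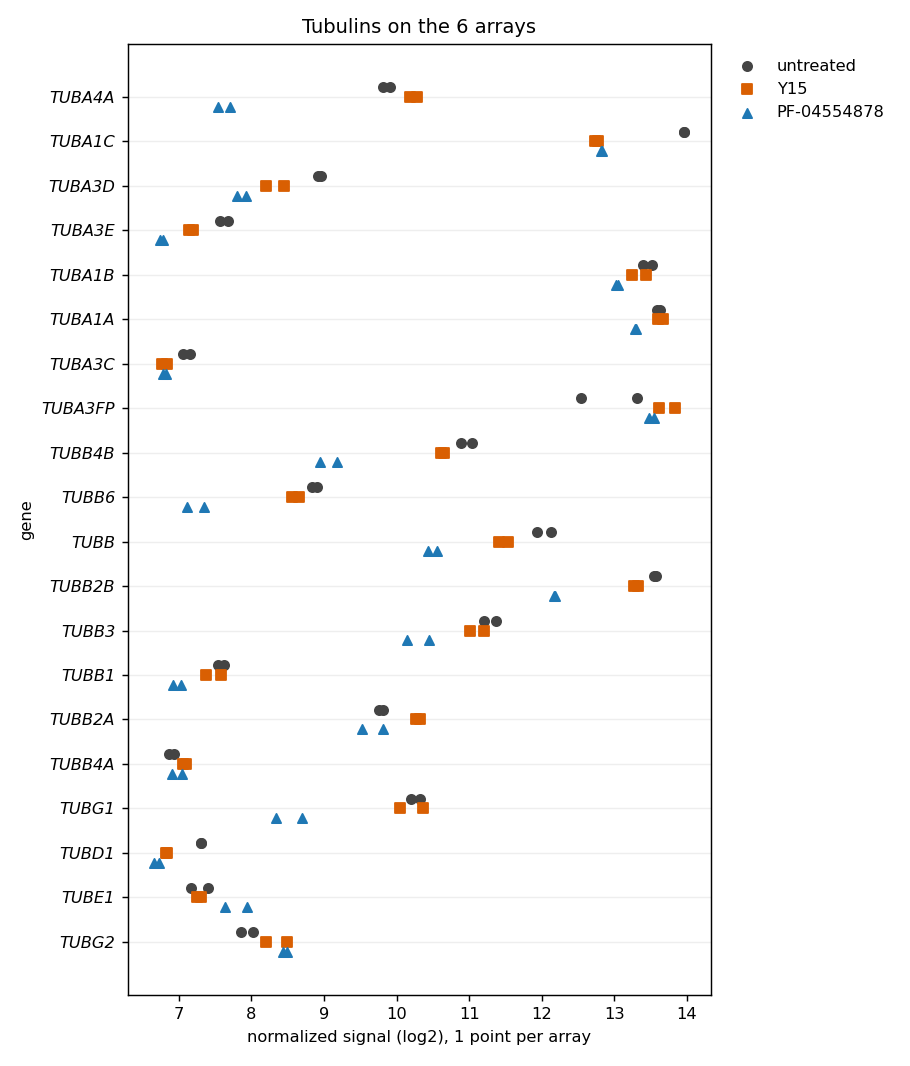
Normalized log2 signal (x axis) of each tested tubulin (y axis, alpha, then beta, then gamma, delta and epsilon) on every array, 1 point per array, with untreated cells as circles, Y15 as squares and PF-04554878 as triangles. For TUBA4A, TUBB4B, TUBB6, TUBB, TUBB2B and TUBG1 the triangles lie to the left of the circles and squares, while TUBA3FP and TUBG2 lie to the right of the untreated arrays under both compounds, TUBG2 only without median scaling.

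Gamma tubulin showed the same contrast. TUBG1, the main gamma tubulin, read 10.20 and 10.32 untreated, 10.36 and 10.04 with Y15 and 8.70 and 8.34 with PF-04554878. The Y15 arrays enclosed the untreated values and the PF-04554878 arrays lay far below. It fell 3.33-fold under PF-04554878 (adjusted p = 1.50e-05) and was 3.20-fold higher with Y15 than with PF-04554878 (adjusted p = 2.06e-05). All 4 of its detected probes passed lower under PF-04554878, with changes from -1.74 to -0.52, while under Y15 a pair of the dimmer ones passed lower (-0.33 and -0.35) where the brightest changed by -0.06. The dimmest of these probes (-0.33 under Y15 and -0.52 under PF-04554878) was detected on 2 arrays only, so its changes are not exact. TUBG2, its close relative, instead passed higher under both (0.41 and 0.52, turning to -0.57 and -0.32 with median scaling). TUBE1, the epsilon tubulin of centrioles, passed higher under PF-04554878 (0.50, -0.07 with median scaling), and TUBD1, the delta tubulin, was detected in untreated cells only and was at least 1.23-fold and 1.21-fold lower.

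Among the gamma-tubulin complex proteins, 4 of 5 passed lower under Y15 (21.5% of all genes) and 2 under PF-04554878 (35.1% of all genes). TUBGCP4 changed by -0.95 under Y15 and -0.39 under PF-04554878, and TUBGCP5 by -0.51 and -0.82, all passing. The calls of TUBGCP4 under PF-04554878 and TUBGCP5 under Y15 were lost in 2 and 1 of the fits that left out 1 array. TUBGCP6 passed lower under Y15 (-0.35, lost in 3 such fits) and not under PF-04554878 (0.07, -0.84 with median scaling). Its dimmer probe, detected on 5 arrays, passed lower under Y15 (-0.33) and higher under PF-04554878 (0.29). NEDD1, which anchors the ring complex and matched by an older name, was detected in untreated cells alone and was at least 1.05-fold lower under Y15, a call lost without any one of the untreated or Y15 arrays and turned to 0.32 with the median of the tested probes. TUBGCP2 passed higher under PF-04554878 (0.29, adjusted p = 0.0475), a call lost in 10 alternatives and turned to -0.61 with median scaling.

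Counted over all 53 tested genes, 33 passed lower and 5 higher under Y15, where 38.2% of all genes passed in either direction. The counts were 19 and 0 without the first Y15 array, 21 and 3 without the second and 48 and 1 with median scaling. Under PF-04554878 35 passed lower and 8 higher, where 62.4% of all genes passed, and 15 fell at least 2-fold, with counts of 45 and 2 under median scaling. Between the compounds 19 were higher and 12 lower with Y15, where 60.8% of all genes passed. In all, 27 genes passed lower against the shared untreated arrays under each compound. Of all genes, 21.5% passed lower under Y15 and 35.1% under PF-04554878, and the share lower under both was not counted.

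**Figure D4:**
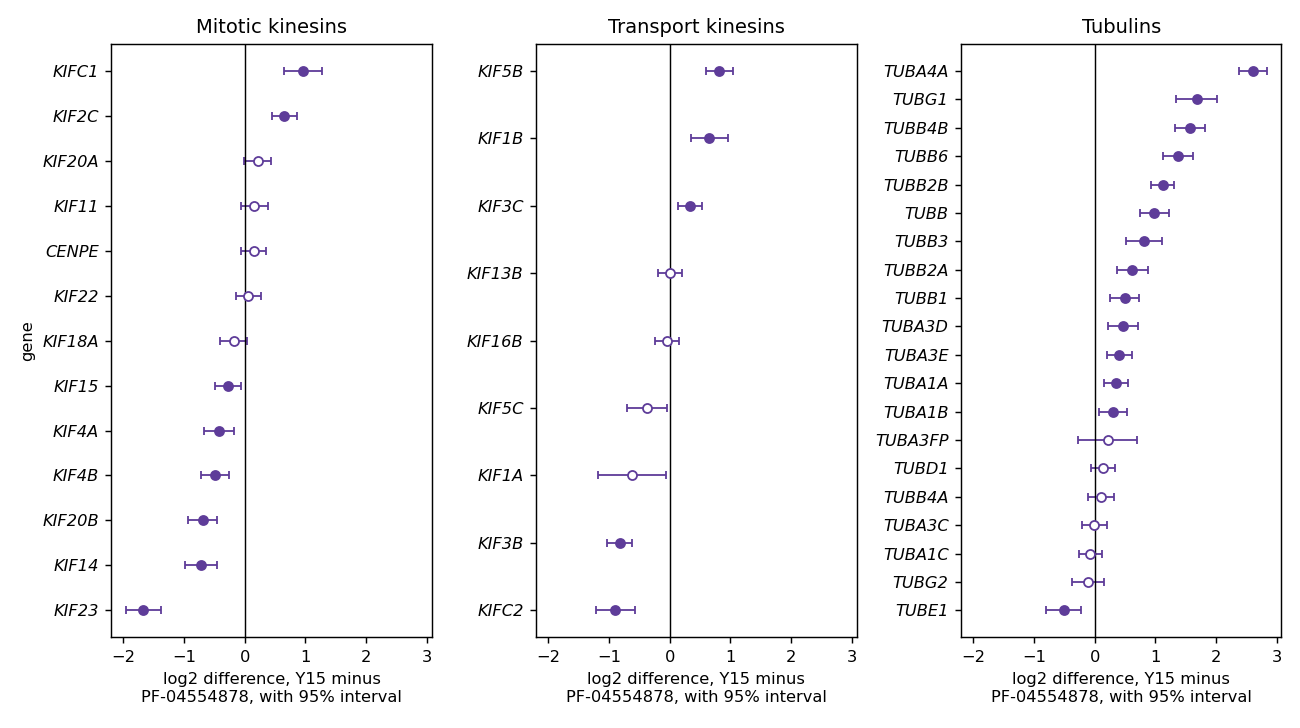
Log2 difference between the compounds (x axis, Y15 minus PF-04554878, with the 95% interval of the limma fit) for each tested mitotic kinesin, transport kinesin and tubulin (y axes), with open points where the difference did not pass. Tubulins lie mostly right of 0, led by TUBA4A at 2.61, and mitotic kinesins on both sides, among them KIF23 at -1.67 and KIF2C at 0.65, and TUBA1B turns to -0.05 with median scaling. Genes not well above background in a group, such as KIFC1 with PF-04554878, are drawn at their measured values, whose differences are not exact.

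Proteins that work with the mitotic kinesins followed them in part. Of 12 tested partners, 11 passed lower under Y15 (median -1.15), where 21.5% of all genes did. Under PF-04554878 9 passed lower and 2 higher (median -1.37), where 35.1% and 27.3% of all genes did. CENPF, a kinetochore protein, changed by -1.62 under Y15 and -1.20 under PF-04554878, and HMMR, a spindle pole protein, by -1.56 and -1.84. PRC1, the midzone bundler that recruits KIF4A and KIF14, fell by 1.29 on the log2 scale under Y15 and passed higher under PF-04554878 (0.36, -0.14 with median scaling). The difference of -1.66 between the compounds passed (adjusted p = 1.82e-06). TPX2, which activates Aurora A on the spindle, was also lower with Y15 than with PF-04554878 (-1.44 and -0.37, difference -1.07). AURKB, the kinase of the passenger complex that KIF20A carries, changed by -1.29 under Y15 and -2.74 under PF-04554878, the largest change of the list. The study names PRC1 and AURKB from these same arrays as well. RACGAP1, the partner of KIF23 in centralspindlin and named after its values were seen, passed lower under both (-1.19 and -1.53), where KIF23 changed by -1.40 and 0.26.

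Of 14 genes for tubulin folding and for the decay of tubulin messenger RNA, 8 passed lower and 2 higher under PF-04554878 (median -0.45). Of all genes, 35.1% and 27.3% did so. Under Y15 1 passed in each direction, where 21.5% of all genes passed lower and 16.7% higher. With median scaling 14 passed lower under Y15, and 11 lower and 0 higher under PF-04554878. ARL2, a small GTPase that works with the tubulin cofactors, changed by -1.36 under PF-04554878 and -0.12 under Y15, and TTC5, the adaptor that recognizes nascent tubulin on the ribosome, by -0.86 and -0.17. Both were higher with Y15 than with PF-04554878 (1.24 and 0.69). Of 12 kinesin adaptors and light chains, 6 passed higher and 2 lower under PF-04554878, where 27.3% and 35.1% of all genes did. With median scaling 0 of these adaptors and light chains passed higher. The mitochondrial adaptors TRAK1 and TRAK2 moved apart under PF-04554878 (0.70, -0.17 with median scaling, and -0.85).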

How the data were processed

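Groups were taken from the GEO labels. Per the labels and the methods, RNA was amplified to biotin-labeled cRNA and read on Illumina BeadChips with GenomeStudio, whose version is not stated in the sources read here. The methods name a HumanRef-8 chip, but the probe identifiers are those of HumanHT-12 v4, and probes were named from that annotation. The deposited intensity values were mean bead intensities per probe on a linear scale, not normalized between arrays. Beside each stood the detection p-value as deposited by the authors. The deposited value table gave log2 signals after quantile normalization by the authors, and differed from the values computed here by at most 5e-09.

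Intensities were put on the log2 scale and quantile normalized over the 47317 probes with values. Probes with detection p below 0.01 on at least 2 arrays were kept (18876), and the kept probe with the highest mean represented each of 11388 genes. limma 3.58.1 in R 4.3.3 estimated 3 group means from the 6 arrays together (3 residual and 5.54 prior degrees of freedom), two-sided, with Benjamini-Hochberg adjustment over all genes tested. For a gene that neither array of a group detected, the fold is a bound against the lowest detected signal of each array, and the bounds carry the adjusted p of the fit. Promoter windows came from RefSeq.

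Members, classes and gene lists were chosen with earlier results of these data known. All tested members were named. Values per array were given for members passing at 2-fold in a comparison, for KIF4A, KIF11 and KIF20A, for the brightest transport kinesins and tubulins, and for some members whose calls differed between the compounds, which were chosen after their values were seen. Up to 3 genes of each neighboring list with the largest changes in a comparison were named, and RACGAP1 was added. Per the methods, duplicate plates were treated with each compound and duplicate plates stayed untreated, so the duplicates were separate plates of the same cell line. The labels give replicate numbers and do not name plates. The p-values measure only the spread between these arrays. The number of arrays limits the precision. The fit was tested on simulated data. Alternatives covered scaling, background correction, filter, probe choice, prior, threshold, pairing and leaving out each array.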

Additional observations from a re-analysis of the deposited data

How the results depend on the processing

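Fold changes of dim members are limited by their signal over background, and only 38 of the 53 tested members were detected on all 6 arrays. With each array scaled to its median over all probes, the members lower under Y15 in the transport class rose from 5 to 9 and the tubulins lower from 7 to 12, while members higher fell from 5 to 1. Under PF-04554878 the same scaling gave 7 transport kinesins lower instead of 4 and 2 members higher instead of 8, and between the compounds 11 members higher instead of 19, 6 tubulins higher instead of 12 and 1 lower instead of 0, and 4 transport kinesins lower instead of 2. With each array scaled to its median over the tested probes, 9 members were higher and 3 transport kinesins lower under Y15, and 1 tubulin and 4 transport kinesins were lower between the compounds. The 4 transport kinesins recurred with nec background correction and with unadjusted p-values. Relative to the median gene, the mitotic kinesins changed by -1.06 under Y15 and -0.72 under PF-04554878 with quantile normalization and by -1.32 and -1.15 with either median.

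With genes detected on all 6 arrays, 20 members, 2 transport kinesins and 4 tubulins were lower under Y15 and 2 transport kinesins under PF-04554878, since fewer genes were tested. The gap between mitotic and transport kinesins was -1.04 under Y15 and -0.94 under PF-04554878 with both median scalings, -1.39, -0.72 and -0.48 (between the compounds) with neqc, -0.96 under Y15 and -0.27 between the compounds with nec, -1.07, -1.16 and 0.39 with genes detected on all arrays, and -0.77 under PF-04554878 with the mean of the probes of a gene.

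Single genes that reversed did so mostly with scaling, and for the others the cause was not tested. Under Y15, median scaling gave KIF2A -1.03, KIF5B -0.69, KIFC2 -1.06, TUBA4A -0.76, TUBB2A -0.62, TUBG2 -0.57, TUBGCP2 -1.02, MAP1A -0.25, BICD2 -0.69 and SVBP -0.69. Under PF-04554878 it gave KIF23 -0.65, KIF2A -0.51, KIF3B -0.47, KIF5C -0.91, TUBE1 -0.069, TUBG2 -0.32, TUBGCP2 -0.61, TUBGCP6 -0.84, PRC1 -0.14 and TRAK1 -0.17, and between the compounds TUBA1B -0.047. The median over tested probes gave KIF13B 0.00183, KIF16B 0.43, KIF24 0.12, KIF26B 0.066, KIF4B 0.77, NEDD1 0.32, TUBA1B 0.51, TUBA3C 0.29, TUBB2B 0.41 and MAP7D2 0.42 under Y15. Under PF-04554878 it gave KIF16B 0.41, KIF24 0.10, NEDD1 0.33, TUBA1A 0.69, TUBA1B 0.50 and TUBA3C 0.24. The mean of a gene's probes turned TUBA1A to -0.90 and TRAK1 to 0.10 under Y15, and KIF1B to -0.064 and TUBA1C to 1.32 between the compounds.

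Leaving out 1 array at a time, the members lower under Y15 ranged from 19 to 33 and those higher from 0 to 5, the mitotic kinesins lower from 11 to 12, the transport kinesins from 1 to 5, the tubulins from 3 to 7 and the gap from -0.87 to -0.71. Leaving out a Y15 array leaves 1 array in that group, which is assumed to vary like the others. Under PF-04554878 members lower ranged from 32 to 36 and higher from 6 to 9, mitotic kinesins from 9 to 10, tubulins from 12 to 13, transport kinesins stayed at 4 and the gap ran from -0.70 to -0.39. Between the compounds members higher ranged from 15 to 19 and lower from 9 to 13, mitotic kinesins lower from 4 to 6, transport kinesins lower from 2 to 4, tubulins higher from 9 to 12 and the gap from -0.27 to -0.029, with 0 tubulins lower.

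Arrays that share a replicate number did not deviate together, with correlations of -0.26, 0.20 and -0.10 for the 3 pairs of groups. With the replicate number as a block, 31 members were lower under Y15 and 35 under PF-04554878, and 13 were lower and 19 higher between the compounds. With the numbers of the Y15 arrays exchanged in the block, a pairing chosen after seeing the data, 33 and 35 members were lower under the compounds, and 14 members and 4 transport kinesins were lower between them.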

Other observations

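Genes of other parts of the microtubule system passed in both directions. Of 33 tested microtubule-associated and severing proteins, 6 passed higher and 9 lower under Y15, where 16.7% and 21.5% of all genes did. Under PF-04554878 12 passed higher and 10 lower, where 27.3% and 35.1% of all genes did. With median scaling 0 and 28 passed higher and lower under Y15, and 2 and 21 under PF-04554878, and without the first or the second Y15 array 1 and 2 passed higher under Y15. CKAP5, a microtubule polymerase of the spindle, changed by -1.11 under Y15 and -1.66 under PF-04554878. MAP1A, a neuronal microtubule protein, changed by 0.91 under Y15 (-0.25 with median scaling) and -1.27 under PF-04554878, a difference of 2.18 between the compounds (adjusted p = 1.64e-05). MAP7D2, which recruits kinesin-1 to microtubules, rose by 1.61 under PF-04554878 and changed by -0.04 under Y15 without passing. KATNA1, the catalytic subunit of the severing enzyme katanin, was detected on 4 arrays and changed by -1.47 under PF-04554878 and -0.23 under Y15, passing in the first.

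Of 24 dynein and dynactin genes, 3 passed higher and 5 lower under Y15, where 16.7% and 21.5% of all genes did. Under PF-04554878 9 passed higher and 6 lower, where 27.3% and 35.1% of all genes did. With median scaling these counts were 0 and 21, and 3 and 16, and without the first or the second Y15 array 1 passed higher and 2 lower under Y15. BICD2, a cargo adaptor of dynein, rose by 1.55 under PF-04554878 and changed by 0.09 under Y15 without passing (-0.69 with median scaling). PAFAH1B1, the dynein regulator LIS1, changed by -0.73 under Y15 and 0.96 under PF-04554878, a difference of -1.68 (adjusted p = 6.97e-06). Of 18 tubulin-modifying enzymes 6 passed lower and 1 higher under PF-04554878, where 35.1% and 27.3% of all genes did. With median scaling 14 of these enzymes passed lower and 0 higher. SVBP, the cofactor of the vasohibins that remove the C-terminal tyrosine of alpha tubulin, changed by -1.22 under PF-04554878 and 0.44 under Y15 (-0.69 with median scaling), and TTLL12 by -1.42 and -0.41. Among 10 nucleation genes, HAUS2, a subunit of augmin, which branches microtubules in the spindle, rose by 1.74 under Y15 and 0.73 under PF-04554878 (0.00451 with median scaling), while its partner HAUS1 changed by -0.95 and -1.14.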
